A study of Rattus norvegicus with 6 samples.

Results

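Iron was withdrawn from rat liver cells in 2 ways, and the responses were set against each other gene by gene. In the first, FAO cells, a rat hepatoma line grown in serum-containing medium, were given the iron chelator deferoxamine at 100 µM for 24 hours and compared with cultures that received water as vehicle. In the second, livers of Wistar rats fed an AIN-93G diet from which iron was left out for 4 weeks were compared with livers of rats fed the same diet with its iron. The difference between deferoxamine-treated and untreated FAO cells was then contrasted with the difference between iron-free and iron-sufficient liver. Probes were kept when they had 2 or more spots and were well above background on all 4 arrays, which left 6131 of 30367 probes and 5659 of 19958 genes. Another 4999 genes of the array could not enter because 1-spot probes alone read them. The RNA of 3 cultures or of 6 animals had been mixed before hybridisation, so each group is 1 array of a pool and no difference has an error between cultures or animals. The labels call the animals mice in places, although strain and array are those of the rat. No p-value is given: a gene is called higher or lower where the log2 difference is at least 1 in size, that is, 2-fold.

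Cells sense iron in several ways. When iron is scarce, iron regulatory proteins bind stem loops in messenger RNAs, which stabilises the transcript of the transferrin receptor and blocks translation of ferritin. Prolyl hydroxylases need iron and oxygen to mark hypoxia-inducible factors for destruction, so that chelators such as deferoxamine are widely used to switch on hypoxia genes in oxygenated cells. In the whole animal the liver also lowers hepcidin, the hormone that closes the iron exporter ferroportin, and anaemia brings further changes in oxygen supply, blood formation and feeding. A cell line under a chelator has none of the body's signals, and a liver after weeks on a diet holds several cell types.

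Levels are the authors' log2 values, each relative to about the 75th percentile of its own array, so that 0 is a fairly bright probe. The sign ± marks a standard error from the spread between a probe's spots, which carries no error of animals or cultures. Every difference is deferoxamine minus untreated in FAO cells, or iron-free minus iron-sufficient in liver, and a pair of differences gives FAO cells and then liver.

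The upstream DNA of 5 genes is shown first. Tfrc, Btg2, Slc2a1 and Acer2 were higher in both comparisons, and Angptl4 moved in opposite directions. All 5 hold a motif searched here, so they do not show how often such motifs occur among the genes past 2-fold in both. The sequences are the 250 bases before the start site, from RefSeq on the GRCr8 build, read 5′ to 3′ along the gene's strand. Capitals mark ACGTG or its reverse complement CACGT, the core bound by hypoxia-inducible factors, except in Btg2, where they mark TGACGTCA, the cAMP response element bound by ATF and CREB factors. The windows lie at chr11:81690319-81690568 on the minus strand for Tfrc, chr5:138002272-138002521 on the plus strand for Slc2a1, chr5:106437598-106437847 on the plus strand for Acer2, chr13:48087691-48087940 on the minus strand for Btg2, and chr7:15258682-15258931 on the minus strand for Angptl4.
Tfrc: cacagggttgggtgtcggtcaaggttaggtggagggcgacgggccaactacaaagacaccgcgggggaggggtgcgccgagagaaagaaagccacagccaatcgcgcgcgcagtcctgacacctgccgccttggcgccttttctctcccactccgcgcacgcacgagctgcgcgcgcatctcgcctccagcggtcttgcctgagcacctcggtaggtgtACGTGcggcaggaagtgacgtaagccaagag
Slc2a1: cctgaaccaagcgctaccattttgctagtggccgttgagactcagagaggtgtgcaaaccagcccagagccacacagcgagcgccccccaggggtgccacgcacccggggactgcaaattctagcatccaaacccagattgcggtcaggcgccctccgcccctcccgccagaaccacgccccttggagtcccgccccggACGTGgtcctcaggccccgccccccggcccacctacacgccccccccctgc
Acer2: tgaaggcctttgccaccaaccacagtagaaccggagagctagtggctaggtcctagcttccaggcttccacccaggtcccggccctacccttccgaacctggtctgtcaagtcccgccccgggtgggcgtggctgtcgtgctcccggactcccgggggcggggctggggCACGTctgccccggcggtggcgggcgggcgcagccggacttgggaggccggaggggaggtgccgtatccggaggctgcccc
Btg2: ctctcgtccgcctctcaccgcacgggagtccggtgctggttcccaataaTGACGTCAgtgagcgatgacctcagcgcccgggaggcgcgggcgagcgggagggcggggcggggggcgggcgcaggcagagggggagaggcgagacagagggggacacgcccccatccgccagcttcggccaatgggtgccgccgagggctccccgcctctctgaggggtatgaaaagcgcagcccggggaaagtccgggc
Angptl4: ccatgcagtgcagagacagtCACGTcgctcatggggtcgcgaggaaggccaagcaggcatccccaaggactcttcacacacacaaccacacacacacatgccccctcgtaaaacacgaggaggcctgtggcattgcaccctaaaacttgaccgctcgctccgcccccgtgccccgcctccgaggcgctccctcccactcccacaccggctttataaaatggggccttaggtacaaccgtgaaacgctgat
The first capital stood 31 bases before the start site in Tfrc, 51 in Slc2a1, 81 in Acer2, 201 in Btg2 and 230 in Angptl4. Of the 44 genes past 2-fold in both comparisons in any combination of directions, 32 had a promoter entry. ACGTG, searched on both strands, was present in 5 of 17 genes higher in both (29.4%: Acer2, Aldoa, Anxa2, Slc2a1 and Tfrc), in 2 of 7 lower in both (28.6%: Nr0b2 and Pim3) and in 2 of 7 higher in FAO cells and lower in liver (28.6%: Angptl4 and Slc25a42), against 16.6% of all 33469 promoters of this length. TGACGTCA stood in Btg2 alone of these 17, against 1.59% of all promoters. The AP-1 motif TGANTCA was present in Anxa2 among the same 17 (6.34% of all promoters), and the antioxidant core TGACNNNGC in Tuba1a (10.1%). That core also stood in 2 of the 7 genes higher in FAO cells and lower in liver (28.6%: Acot2 and Tymp). The shares of all promoters count every entry and not those of the tested genes alone. An excess over them is therefore not read as a feature of the called genes. A match describes letters and not a site in use.

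Most genes moved little in either comparison: 5085 of 5659 (89.9%) stayed within 2-fold in both. With deferoxamine, 133 genes were at least 2-fold higher than in untreated FAO cells (2.35% of those tested) and 224 at least 2-fold lower (3.96%). Some of the 224 rest on spots in noisy areas of the deferoxamine array, given below. The excess of 224 over 133 is therefore not read as a difference here. In iron-free liver 135 genes were higher than in iron-sufficient liver (2.39%) and 126 lower (2.23%). Both comparisons called 23 genes higher (0.406%) and 11 lower (0.194%), 7 were higher in FAO cells and lower in liver (0.124%), and 3 were lower in FAO cells and higher in liver (0.053%). The 23 shared genes made up 17.3% of the genes higher in FAO cells and 17.04% of those higher in liver. The 11 shared lower genes were 4.91% of the genes lower in FAO cells and 8.73% of those lower in liver. The 7 opposed genes were 5.26% of those higher in FAO cells and 5.56% of those lower in liver, and the 3 others were 1.34% of those lower in FAO cells and 2.22% of those higher in liver. No array stands in both comparisons.

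Across genes the pair of differences correlated weakly, with Pearson's r of 0.175 and Spearman's rho of 0.175 (n = 5659 genes, which are not independent replicates, and 0.186 for r without Hamp). Of the 133 genes higher in FAO cells, 62.4% were also above 0 in liver, against 38.5% of all genes. Of the 224 lower in FAO cells, 72.8% were below 0 in liver, against 61.5% of all genes. Of the 135 higher in liver, 72.6% were above 0 in FAO cells, against 53.3% of all genes, and of the 126 lower in liver 54% were below 0 in FAO cells, against 46.7% of all genes. By the contrast of the differences, FAO minus liver, 311 genes stood at log2 1 or more (5.5%) and 275 at -1 or less (4.86%). Without spots in the noisy blocks described next, these were 307 and 179 of 5335 genes.

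Several facts of the arrays bear on these calls. The share of probes well above background was 48.53% with deferoxamine, 48.46% without it, 47.72% in iron-free liver and 39.99% in iron-sufficient liver. The median difference over the 5659 genes was 0.03 in FAO cells and -0.11 in liver, but scaling each array to the median of its own detected probes put the liver median at 0.54, which raises each liver difference by 0.65. Any liver value printed below that lies between -0.65 and 0 is therefore positive under the median scaling, and liver calls just past 2-fold are gained or lost with it. When the scanned area was divided into 264 blocks, 24 were noisy or shifted on the deferoxamine array, 14 on the untreated, 5 on the iron-free liver and 49 on the iron-sufficient liver array. A value without the spots in such blocks is called clean here. It is printed where it crosses 2-fold or departs widely, and 185 genes have none. A spot in a noisy block on any of the 4 arrays enters the value of 2804 of the 5659 genes. Counts and differences keep such spots unless stated. All 12 hepatocyte markers, among them albumin and Hnf4a, were well above background on each of the 4 arrays. Their summed level was 359 times the 75th percentile with deferoxamine, 310 in untreated cells, 2983 in iron-free and 2637 in iron-sufficient liver. In FAO cells the bright F2 (0.81) and Ahsg (0.39) carried much of the rise in that sum. Of the 12, 5 were above 0 there (median -0.18). None was at least 2-fold higher, and 2 were lower, Ttr (-1.64) and Apob (-1.21).

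Other cell types were found in liver and hardly in FAO cells. Of 14 erythroid markers, 3 were well above background with deferoxamine and 1 without it, and 7 in iron-free against 5 in iron-sufficient liver. Their summed level was 0.566 against 0.310 in FAO cells and 352 against 110 in liver, and Hbb, Alas2 and Slc4a1 were not well above background in FAO cells. All 14 macrophage markers were detected in both livers with a summed level of 155 in each, against 2 with deferoxamine (3.48) and 1 without (1.44). The liver sum is carried by Clec4f (0.15), C1qa (-0.16) and C1qb (-0.17). Single markers departed from it: Marco (1.01) and Timd4 (0.81) were above 0, and Csf1r (-0.38) and Adgre1 (-0.33) below. Endothelial markers summed to 29.3 in iron-free and 35.6 in iron-sufficient liver, a sum carried by Kdr (-0.63), while Stab2 (0.96), Lyve1 (0.97) and Vwf (0.53) went the other way. In such bulk samples, fewer cells of a type and less RNA per cell cannot be told apart. The part of the erythroid signal in the liver differences below was not tested.

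Among iron genes, Tfrc, the receptor that takes up transferrin-bound iron, was the member higher in both comparisons. Its level was 4.73 with deferoxamine against 3.19 in untreated FAO cells, and 5.48 in iron-free against 1.82 in iron-sufficient liver. That is 2.92-fold in FAO cells (log2 1.54 ± 0.15, or 1.91 from clean spots) and 12.6-fold in liver (3.66 ± 0.26), a contrast of -2.11 ± 0.30. A further Tfrc probe, detected on 3 of the arrays and so not a member, gave 2.10 and 4.14. Both treatments therefore put Tfrc on the same side, with the larger difference in liver.

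Hamp, which encodes hepcidin, was the widest contrast. It stood at 1.44 with deferoxamine against 0.68 in untreated FAO cells, and at -2.24 in iron-free against 7.51 in iron-sufficient liver. In FAO cells the difference of 0.76 ± 0.07 did not reach 2-fold, while in liver Hamp was 862-fold lower (-9.75 ± 0.19, clean -9.53) over 10 spots. Rgn, regucalcin, a calcium-binding lactonase of ascorbate synthesis, stood at 1.66 with deferoxamine against 2.38 in untreated cells (-0.72 ± 0.05), and at 6.03 in iron-free against 4.60 in iron-sufficient liver (1.43 ± 0.13, clean 1.10).

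Ferritin transcripts hardly differed: Fth1 by 0.23 in FAO cells and -0.14 in liver, and Ftl1 by 0.15 and -0.38. Slc40a1, the exporter ferroportin, differed by 0.30 in FAO cells and 0.94 in liver, where it has no clean value. Aco1, the cytosolic aconitase that doubles as an iron regulatory protein, gave 0.10 and -0.22, and Tfr2, an iron sensor of hepatocytes, -0.01 and -0.41. Tf, plasma transferrin, lay just outside the rule with 1.02 in FAO cells and 0.996 in liver, but its clean liver value was -0.30. Cp, the ferroxidase ceruloplasmin, was higher in FAO cells alone at 1.72 ± 0.82 against -0.05 in liver. So was Epas1, which encodes HIF-2α, at 1.77 ± 0.82 against -0.05. Fbxl5, the iron-sensing ubiquitin ligase subunit that degrades iron regulatory proteins, was lower in liver at -1.13 and gave -0.25 in FAO cells. Of 12 members among 25 iron uptake, storage and export genes, 4 were higher in FAO cells, against 2.35% of all genes. Their median there was 0.26, against 0.03 for all genes. In liver 1 was higher and 1 lower, against 2.39% and 2.23% of all genes. The liver median was -0.10, against -0.11 for all genes. It turned positive under 3 scalings, with 4 higher and none lower under the median one.

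The genes higher in both held a group of hypoxia and glycolysis genes. Adm, the vasodilator peptide adrenomedullin, was at 3.72 with deferoxamine against 1.32 in untreated cells, and at 0.88 in iron-free against -0.43 in iron-sufficient liver (2.40 ± 0.07 and 1.31 ± 0.14, 10 spots). Slc2a1, the glucose transporter GLUT1, was at 3.31 with deferoxamine against 1.38 without it, and at 0.76 in iron-free against -0.60 in iron-sufficient liver (1.93 ± 0.08 and 1.36 ± 0.12, 10 spots). Ero1a, the oxidase that drives disulfide formation in the endoplasmic reticulum, was at 2.87 with deferoxamine against 1.01 without it, and at 1.57 in iron-free against 0.20 in iron-sufficient liver (1.86 ± 0.11 and 1.38 ± 0.21). All 3 were more than 2-fold higher on both sides. The difference in FAO cells was the larger by 1.10 in Adm, 0.57 in Slc2a1 and 0.49 in Ero1a. The median scaling raises each liver difference by 0.65, so under it this order holds for Adm alone. Of the glycolytic enzymes, Aldoa (aldolase A) was at 5.46 with deferoxamine against 4.09 without it, and at 2.38 in iron-free against 1.03 in iron-sufficient liver (1.37 ± 0.10 and 1.35 ± 0.20). Pfkl, the liver phosphofructokinase subunit, was at 2.90 with deferoxamine against 1.59 without it, and at 0.62 in iron-free against -0.60 in iron-sufficient liver (1.32 ± 0.11 and 1.22 ± 0.28), and its other member probe gave 1.53 and 1.45. Plod1, an iron-dependent lysyl hydroxylase of collagen, gave 1.43 in FAO cells and 1.16 in liver, but 0.83 from clean liver spots. Aldoa and Pfkl were of about equal size on both sides under the authors' scaling, whereas the liver difference is the larger under the median one.

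Hypoxia-inducible factor targets passed 2-fold more often in FAO cells than in liver, by a margin that depends on the scaling. Of 15 members among 38 on the array, 11 were higher with deferoxamine and none lower, against 2.35% and 3.96% of all genes. Their median was 1.32, against 0.03 for all genes. In liver 3 were higher (Adm, Ero1a and Slc2a1) and Angptl4 was lower, against 2.39% and 2.23% of all genes. The liver median was 0.18, against -0.11 for all genes. The contrast was at 1 or more for 8 of the 15, against 5.5% of all genes. Under the median scaling 12 were higher in FAO cells and 7 in liver (median 0.83), with the contrast at 1 or more for 2. Bhlhe40, a clock and hypoxia repressor, was at 0.00 with deferoxamine against -2.21 in untreated cells, and at -0.32 in iron-free against -0.50 in iron-sufficient liver (2.21 ± 0.41 and 0.18 ± 0.31). Bnip3, a mitophagy receptor, differed by 1.52 and 0.06, and Bnip3l, its paralog, by 1.09 and -0.44. Vegfa, the angiogenic growth factor, differed by 1.32 in FAO cells and by 0.49 in liver. Ldha, lactate dehydrogenase A, differed by 1.14 and 0.15, and Insig2, which retains the sterol sensor SCAP, by 1.85 and 0.73.

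Glycolysis had 14 members of 24 genes, with medians of 0.74 in FAO cells and 0.55 in liver, and the contrast median was 0.06. Pfkl and Aldoa passed 2-fold in both. Tpi1, triose phosphate isomerase, was at 6.18 with deferoxamine against 5.27 in untreated cells, and at 5.78 in iron-free against 4.63 in iron-sufficient liver (0.90 and 1.15). Pklr, the liver pyruvate kinase, ran the other way, with -0.76 in FAO cells and -1.42 in liver, where it has no clean value.

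Stress and growth-arrest genes formed another part of those higher in both. Atf3, a stress-induced transcription factor, was at 3.84 with deferoxamine against -2.05 in untreated cells, and at 0.71 in iron-free against -1.14 in iron-sufficient liver. It was thus 59.0-fold higher in FAO cells (5.88 ± 0.22) and 3.60-fold higher in liver (1.85 ± 0.28). Btg2, an antiproliferative p53 target and immediate early gene, was at 3.54 with deferoxamine against 0.70 without it, and at 2.32 in iron-free against -0.49 in iron-sufficient liver. Its differences were 2.84 ± 0.13 and 2.81 ± 0.24, a contrast of 0.03 ± 0.28, so Btg2 was about 7-fold higher in both under the authors' scaling. The median scaling, which raises each liver difference by 0.65, makes the liver difference the larger. Ccng1, cyclin G1, another p53 target, gave 1.41 ± 0.23 and 1.35 ± 0.28. Bcl3, a nuclear cofactor of NF-κB, was at 3.38 with deferoxamine against 2.06 without it, and at 2.28 in iron-free against 0.80 in iron-sufficient liver (1.32 ± 0.05 and 1.49 ± 0.12, 10 spots). Tnfrsf12a, the receptor of TWEAK, gave 1.40 and 1.35, and Tnfrsf9, the costimulatory receptor 4-1BB, 1.82 ± 0.41 and 1.45 ± 0.59.

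The remaining genes higher in both have varied roles. Tuba1a, an α-tubulin, was at 4.67 with deferoxamine against 2.42 in untreated cells, and at 2.34 in iron-free against 0.63 in iron-sufficient liver (2.25 ± 0.08 and 1.71 ± 0.12, 10 spots, clean liver value 1.53). Anxa2, the membrane-binding annexin A2, was at 6.82 with deferoxamine against 5.27 without it, and at 3.84 in iron-free against 2.06 in iron-sufficient liver (1.54 and 1.78). Tes, the focal adhesion protein testin, gave 1.58 and 1.503. Gstm3, a glutathione transferase, was at -0.25 with deferoxamine against -2.01 without it, and at 0.89 in iron-free against -2.01 in iron-sufficient liver (1.76 ± 0.23 and 2.90 ± 0.58), and its other member probe gave 1.36 and 3.06. Near-identical members of that family can share a probe's signal. A2m, the protease inhibitor α2-macroglobulin and an acute phase protein of the rat, gave 1.09 and 1.92. Isg15, the ubiquitin-like interferon product, gave 1.60 and 1.07, but 0.60 from clean liver spots. Another 4 genes, named after their values were seen because they complete the 23, were Acer2, an alkaline ceramidase (2.71 ± 0.80 and 1.08 ± 0.20), Lgals3, galectin 3 (1.13 and 1.12, no clean liver value), Sdc1, the proteoglycan syndecan 1 (1.18 and 1.12, clean liver value 0.65), and Sox4, a transcription factor (1.12 and 1.01). Sox4 was the member nearest the threshold.

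The kidney arrays of the same diet groups give a readout that chose none of these genes. Whether the liver and kidney pools came from the same animals is not stated, so the organs may share them. Shares are set against all genes and not against genes higher in liver alone. Of the 23 genes higher in both, 20 were well above background in both kidneys. In iron-free against iron-sufficient kidney 18 of the 20 were above 0, with a median of 0.44, against -0.06 for all 4938 member genes measured there. At least 2-fold higher were 5 of them (25%, against 0.709% of all): Tfrc at 3.00, Btg2 at 1.41, Pfkl at 1.24, Bcl3 at 1.13 and Plod1 at 1.02. Without spots in noisy blocks of the kidney arrays the same 5 stayed past 2-fold and 18 of 20 above 0. Below 0 were Tnfrsf12a at -0.19 and Atf3 at -1.19, the opposite side from FAO cells and liver. Of the 9 genes lower in both that were measured in kidney, 1 was above 0 and none was at least 2-fold lower, against 0.324% of all, with a median of -0.23. None of the 5 measured genes higher in FAO cells and lower in liver was above 0 in kidney (median -0.30).

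Of the 11 genes lower in both, Aldh1a1 alone stayed so when arrays were scaled to the median of detected probes. Aldh1a1, which oxidises retinaldehyde, was at -0.66 with deferoxamine against 1.84 in untreated cells, and at 1.72 in iron-free against 4.42 in iron-sufficient liver. It was 5.66-fold lower in FAO cells (-2.50 ± 0.15) and 6.49-fold lower in liver (-2.70 ± 0.21). Ddc, aromatic amino acid decarboxylase, was at 1.92 with deferoxamine against 3.74 without it, and at 3.70 in iron-free against 4.98 in iron-sufficient liver (-1.82 ± 0.10 and -1.28 ± 0.20). Gpd1, cytosolic glycerol-3-phosphate dehydrogenase, gave -1.54 and -1.20. Nr0b2, the bile acid-induced repressor SHP, was at 2.78 with deferoxamine against 3.94 without it, and at 4.67 in iron-free against 6.09 in iron-sufficient liver (-1.16 ± 0.10 and -1.42 ± 0.20). In these 4 genes the clean spots kept both differences past 2-fold, but the median scaling ended the liver calls of Ddc, Gpd1 and Nr0b2.

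Cyp4a1, a fatty acid ω-hydroxylase, gave -1.09 ± 0.43 in FAO cells and -1.21 in liver. Hao1, the peroxisomal glycolate oxidase, gave -1.68 ± 0.79 and -1.13. Abat, which breaks down GABA, gave -1.72 ± 0.79 and -1.07, with no clean liver value, and Erbb3, a receptor of neuregulins, -1.42 ± 0.46 and -1.50 ± 0.48. These 4 were dim in FAO cells, at -3.77 to -2.26 with deferoxamine, and their spot errors in those cells were wide. Dcaf5, Mthfs and Pim3 rest on spots in noisy blocks: Dcaf5, a ubiquitin ligase receptor, gave -1.44 in FAO cells but 0.13 from clean spots, Pim3, a kinase, -2.84 but -0.12, and Mthfs, a folate enzyme, -1.19 but -0.56. Just outside the rule stood Cyp2f4, a cytochrome P450, at -2.13 and -0.99.

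Angptl4 led the opposed genes. It encodes a secreted inhibitor of lipoprotein lipase and is a target of both hypoxia-inducible factors and PPAR receptors. Its level was 1.08 with deferoxamine against -2.12 in untreated FAO cells, and 4.24 in iron-free against 5.47 in iron-sufficient liver. It was 9.19-fold higher in FAO cells (3.20 ± 0.40) and 2.35-fold lower in liver (-1.23 ± 0.27, clean -0.98), and differed by -1.66 in kidney. Acot2, a mitochondrial acyl-CoA thioesterase and likewise a PPARα target, was at 2.78 with deferoxamine against 0.96 without it, and at 0.60 in iron-free against 1.73 in iron-sufficient liver (1.83 ± 0.11 and -1.13 ± 0.20). No spot of Acot2 lay in a noisy block. Slc25a42, the mitochondrial coenzyme A carrier, was at 0.57 with deferoxamine against -0.61 without it, and at 0.26 in iron-free against 1.36 in iron-sufficient liver (1.18 ± 0.17 and -1.10 ± 0.20). Stbd1, which anchors glycogen to membranes, gave 1.73 and -1.16 (clean -0.88). Tymp, thymidine phosphorylase, gave 1.06 ± 0.40 and -1.15 ± 0.20. Noct, nocturnin, a phosphatase with a daily rhythm in liver, gave 1.38 ± 0.41 and -1.01 (clean -0.50). Sult1c2, a sulfotransferase, gave 1.65 ± 1.19 and -1.05, its untreated value resting on 1 spot. Scaled to the median of detected probes, the 7 stayed below 0 in liver, between -0.58 for Angptl4 and -0.36 for Noct, and so short of 2-fold, and all 7 stayed past 2-fold in FAO cells.

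Only 3 genes were lower in FAO cells and higher in liver. Rhox5, a homeobox gene known from the reproductive tract of the mouse, was at 3.65 with deferoxamine against 4.84 in untreated cells, and at -0.27 in iron-free against -1.98 in iron-sufficient liver (-1.19 ± 0.10 and 1.71 ± 0.44). Cdc20, the activator of the anaphase-promoting complex, was at 1.59 with deferoxamine against 2.73 without it, and at -0.92 in iron-free against -1.96 in iron-sufficient liver (-1.14 ± 0.27, clean -0.93, and 1.05 ± 0.44). LOC100911718, a protein-coding gene without a given name, gave -1.09 and 1.01 and was the member nearest the threshold.

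Fatty acid oxidation and PPAR target genes were lower in liver, a result that rests on the scaling. Of 34 members among 45 genes, 2 were higher and 1 lower in FAO cells (median -0.04), against 2.35% and 3.96% of all genes. In liver none was higher and 8 were lower (median -0.66), against 2.39% and 2.23% of all genes. The contrast was at 1 or more for 8 and at -1 or less for none, against 5.5% and 4.86% of all genes. Under the median scaling none was lower and 1 was higher in liver (median -0.01), and the contrast was at 1 or more for 2 and at -1 or less for 1. Ech1, a peroxisomal and mitochondrial isomerase, was at 1.62 with deferoxamine against 1.51 without it, and at 2.96 in iron-free against 4.18 in iron-sufficient liver (0.10 and -1.23). Cpt2, carnitine palmitoyltransferase 2, gave -0.40 and -1.33, Crat, carnitine acetyltransferase, -0.21 and -1.10, and Ehhadh, the peroxisomal bifunctional enzyme, -0.85 ± 0.46 and -1.35. Of the members past 2-fold in liver, Cyp4a1 alone was lower in both.

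Of 20 members among 29 genes of fatty acid and triglyceride synthesis, 1 was higher and 1 lower in FAO cells (median -0.02). The shares of all genes there were 2.35% and 3.96%. In liver none was higher and 3 were lower (median -0.42), against 2.39% and 2.23% of all genes. Under the median scaling the liver median was 0.23, with 3 higher and 2 lower. Plin2, the coat protein of lipid droplets, was at 5.81 with deferoxamine against 4.12 in untreated cells (1.69 ± 0.10), and at 5.50 in iron-free against 6.40 in iron-sufficient liver (-0.90 ± 0.20). Scd, the iron-dependent stearoyl-CoA desaturase, was at 5.52 with deferoxamine against 4.84 without it, and at 5.76 in iron-free against 8.36 in iron-sufficient liver (0.68 and -2.60, or 6.06-fold lower in liver). Scd4, a related desaturase, gave 0.21 and -3.23, and Me1, malic enzyme, which supplies NADPH, -0.20 and -1.97. Fasn, fatty acid synthase, was below 0 in both with -0.78 and -1.03 (clean -0.93 in liver). Agpat2, an acyltransferase, gave -1.40 and -0.72, but -0.14 and -0.47 from clean spots. Agpat2 is the 1 gene of this list counted as lower in FAO cells, so that count rests on a spot in a noisy block. Alas1, the first enzyme of heme synthesis, was higher in FAO cells (1.29 ± 0.11) and gave -0.85 ± 0.27 in liver (clean -0.63) and 1.07 in kidney. Pck1, phosphoenolpyruvate carboxykinase, gave 0.88 and -0.85, short of 2-fold on both sides.

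Immediate early genes, which answer signals within minutes, were higher with deferoxamine beyond the shared Atf3 and Btg2. Of 16 members among 37 genes, 9 were higher in FAO cells (median 1.07) and 2 in liver (median 0.17). The shares of all genes were 2.35% in FAO cells (median 0.03) and 2.39% in liver (median -0.11). Under the median scaling 9 and 6 were higher (liver median 0.82, against 0.54 for all genes). Jun, a subunit of AP-1, was at 0.36 with deferoxamine against -3.07 without it, and at 0.68 in iron-free against 0.58 in iron-sufficient liver (3.43 ± 0.80 and 0.10 ± 0.21). Dusp5, a phosphatase of ERK kinases, was at 0.99 with deferoxamine against -1.29 without it, and at 0.14 in iron-free against 0.22 in iron-sufficient liver (2.28 ± 0.07 and -0.08 ± 0.10, 10 spots). Klf6, a zinc finger factor, gave 1.79 and 0.20.

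Among acute phase genes the calls also lay mostly in FAO cells. Of 15 members among 32 genes, 8 were higher in FAO cells (median 1.09), against 2.35% of all genes (median 0.03). In liver A2m alone was higher, against 2.39% of all genes. The liver median was -0.15, against -0.11 for all genes. It turned positive under 2 scalings, with 2 higher under the median one. Fga, the fibrinogen α chain, was at 4.22 with deferoxamine against 2.43 without it, and at 8.02 in iron-free against 8.0 in iron-sufficient liver (1.78 ± 0.11 and 0.03 ± 0.20). Serpina3n, a protease inhibitor, gave 1.86 and -0.24, and Cebpb, a transcription factor of that response, 1.56 and -0.49, but 0.90 from clean FAO spots. Hp, haptoglobin, departed from the list with -0.86 in FAO cells and -0.15 in liver.

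Among p53 targets and apoptosis genes, 7 of 15 members were higher in FAO cells (median 0.82), against 2.35% of all genes (median 0.03). In liver 2 were higher, Btg2 and Ccng1, against 2.39% of all genes. The liver median was -0.21, against -0.11 for all genes. It turned positive under 5 of 13 alternatives, with 4 higher under the median scaling. Bbc3, the cell death activator PUMA, gave 1.52 and 0.26. Tp53inp1, a stress protein, gave 1.75 ± 0.41 and -0.23, and Phlda3, an inhibitor of AKT, 1.34 ± 0.42 and 0.59. Hmox1, heme oxygenase 1, was at 2.78 with deferoxamine against 0.86 without it, and at 1.61 in iron-free against 1.13 in iron-sufficient liver (1.91 ± 0.08 and 0.48 ± 0.12, 10 spots). It was higher in FAO cells and short of 2-fold in liver.

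Enzymes of drug metabolism were lower mainly in the cells. Of 31 members among 65 genes, 9 were lower in FAO cells and 1 higher (median -0.57), against 3.96% and 2.35% of all genes. In liver 2 were lower and 2 higher (median -0.28), against 2.23% and 2.39% of all genes. The liver median turned to 0.37 under the median scaling, with 1 lower and 4 higher. Cyp2e1, an ethanol-inducible cytochrome P450, was at 0.79 with deferoxamine against 2.57 without it, and at 6.31 in iron-free against 7.10 in iron-sufficient liver (-1.78 ± 0.12 and -0.79 ± 0.13, 10 spots). Gsta2, a glutathione transferase, gave -2.64 in FAO cells (clean -2.13) and 0.15 in liver. Gstp1, another transferase, was the reverse case, with -0.12 in FAO cells and 1.61 in liver.

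Genes of DNA replication and the cell cycle passed 2-fold upward in liver alone. Of 20 members among 59 genes, 9 were higher and 1 lower in liver (median 0.85), against 2.39% and 2.23% of all genes. Under the median scaling 16 were higher in liver. In FAO cells none was higher and 1 was lower (median 0.16), against 2.35% and 3.96% of all genes. Cdk1, the mitotic kinase, was at 5.68 with deferoxamine against 5.57 in untreated cells, and at 1.93 in iron-free against -1.37 in iron-sufficient liver (0.11 ± 0.07 and 3.31 ± 0.20, 10 spots). Rrm2, the iron-dependent subunit of ribonucleotide reductase, was at 6.40 with deferoxamine against 6.05 without it, and at 2.99 in iron-free against -0.17 in iron-sufficient liver (0.35 and 3.16 ± 0.24). Both stood far higher in the growing cells than in either liver. E2f1, a factor of the S phase, gave 0.84 and 1.56 ± 0.59, whereas Ccnd1, cyclin D1, gave 0.03 and -1.79. Beside this, the erythroid summed level was 352 in iron-free against 110 in iron-sufficient liver. Rhd, a red cell surface protein and the erythroid marker among the members, was at 0.42 in iron-free against -2.58 in iron-sufficient liver (3.00 ± 0.58) and gave 0.08 ± 1.10 in FAO cells. Cd52, a leukocyte surface protein outside the marker lists, gave 2.36 in liver and -0.22 ± 1.15 in FAO cells. The listed macrophage markers summed to 155 in both livers. In iron-free against iron-sufficient liver, neutrophil markers summed to 1.53 against 1.14, and lymphocyte markers to 0.758 against 0.800. What part erythroid cells or leukocytes have in the cell cycle difference was not tested.

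Cholesterol synthesis and uptake genes leaned up in both, past 2-fold in liver alone. Of 23 members among 25 genes, 9 were higher in liver and none lower (median 0.80), against 2.39% and 2.23% of all genes. Under the median scaling 18 were higher in liver. None passed 2-fold in FAO cells (median 0.38, against 0.03 for all genes). Sqle, squalene epoxidase, was at 4.82 with deferoxamine against 4.08 without it, and at 3.34 in iron-free against 0.81 in iron-sufficient liver (0.74 ± 0.10 and 2.53 ± 0.27). Mvd, mevalonate decarboxylase, gave 0.38 and 1.86, and Idi1, an isomerase of the same pathway, 0.69 and 1.77. In FAO cells 19 of the 23 were above 0, and in liver 21 of 23, against 53.3% and 38.5% of all genes.

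Serine synthesis enzymes passed 2-fold in liver and not in FAO cells. Phgdh, the first of them, was at 6.06 with deferoxamine against 6.54 without it, and at 2.36 in iron-free against -0.27 in iron-sufficient liver (-0.48 and 2.63 ± 0.29). Psat1, the next enzyme, gave -0.02 and 1.97 (clean 1.04), and Mthfd2, a mitochondrial folate enzyme, 0.20 and 1.92 ± 0.21 over 10 spots. The list as a whole was divided: of 18 members, 3 were higher and 1 lower in liver, against 2.39% and 2.23% of all genes. Under the median scaling these were 4 and none. In FAO cells 2 were lower, against 3.96% of all genes: Cth (-1.45) and Aldh1l1 (-1.39, but -0.78 from clean spots). Akr1b8, an aldo-keto reductase, was the largest liver increase among genes within 0.25 in FAO cells. It gave 3.92 ± 0.58 in liver (15.1-fold) and -0.09 in FAO cells.

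Several of the strongest decreases in FAO cells rested on spots in noisy blocks of the deferoxamine array. Psmb4, a proteasome subunit, gave -3.79 from all spots and 0.18 from clean ones, Dnaja1, a co-chaperone, -3.53 and -0.04, and Sord, sorbitol dehydrogenase, -2.74 and -0.46. Txnrd1, thioredoxin reductase 1, gave -2.52 and -0.24. Rps23 and Ewsr1, a ribosomal protein and an RNA-binding protein, stood at -3.92 and -3.50 with no clean value in FAO cells. These genes are listed as lower in FAO cells by the rule and are not read as a difference here.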

How the data were processed

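RNA of 3 FAO cultures or 6 animals had been pooled per group, per the labels' protocols, and hybridised as 1 one-colour array each, all 6 on 1 slide; 4 arrays form the comparison and 2 kidney arrays give a further readout. Per the file headers, Agilent Feature Extraction 10.7.3.1 gave the authors' background-subtracted intensity of each spot on a linear scale (design 028279, header build rn4). The authors' deposited table holds, for every probe, an intensity and its log2. When compared with the spots, that intensity proved to be their geometric mean without those flagged as outliers (680 to 1215 spots per array), within a relative tolerance of 0.0001 for 99.97% to 100% of probes. The log2 value was log2 intensity minus about the array's 75th percentile. Columns 8, 9, 12 and 13 were matched to samples by that comparison and by order.

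The differences were taken from the authors' log2 values with Python 3.11.15, numpy 2.4.6, pandas 2.3.3 and, for normexp, limma 3.58.1 under R 4.3.3. Each gene is read from 1 member probe, the brightest on average over the 4 arrays. No member is below background or saturated, so no difference is a bound. In the slide layout, blocks of 16 by 16 spots counted as noisy where the spread was over 2 times the array's median block or the shift over 0.3 (log2). Spot errors were pooled in 20 bins of signal. With 1 array per group there is no test, and the number of arrays limits the precision.

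Named are genes past 2-fold in both comparisons, up to 6 per direction past 2-fold in one and within 0.25 in the other, 10 iron genes of which Ireb2 is no member, and up to 5 per list of the 44 lists by size of difference; other list members are named where a count turns on them. Members and lists were chosen with earlier results of these data known. Alternatives were the scaling, background correction, spots and probes used, detection filter and the size of the fold. The scripts were checked on simulated data. Sequences are from RefSeq (GRCr8) and share no coordinates with the array's build. Results for some genes are not reported here.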

Additional observations from a re-analysis of the deposited data

Results flagged for a closer look

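Genes that were past 2-fold in opposite directions are listed by the FAO difference minus the liver difference (log2). The difference was not tested, since each group is 1 array. Higher in deferoxamine-treated than untreated FAO cells and lower in iron-free than iron-sufficient liver were Angptl4 (4.43), Acot2 (2.96), Stbd1 (2.89), Sult1c2 (2.69), Noct (2.39), Slc25a42 (2.27) and Tymp (2.21). Lower in FAO cells and higher in liver were Rhox5 (-2.90), Cdc20 (-2.19) and LOC100911718 (-2.10). Without spots in noisy blocks, Angptl4, Noct and Stbd1 no longer passed 2-fold in liver, and Cdc20 no longer did in FAO cells. Sult1c2 rests on 1 of its 2 untreated spots.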

How the results depend on the processing

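No paired analysis was possible because each group is 1 array of pooled RNA. Under the alternatives, the 23 genes higher in both became 70 at 1.5-fold, 4 at 3-fold, 35 with detection by any spot, 53 with arrays scaled to the median of detected probes, 101 without the detection filter and 4 with 10-spot probes only. The 11 lower in both became 89, 1, 20, 1, 140 and 0 in the same order, 6 with normexp and 7 without noisy spots (blocks noisy on any array, or on the array itself). The 7 genes higher in FAO cells and lower in liver became 38 at 1.5-fold, 0 at 3-fold, 4 with centred differences, 0 with median scaling, 108 without the detection filter, 1 with normexp, 0 with 10-spot probes and 4 without noisy spots under either rule. The 3 in the last corner became 24 at 1.5-fold, 0 at 3-fold, 8 with detection by any spot, 21 with median scaling, 68 without the filter, 1 with normexp and 0 with 10-spot probes. The contrast's 311 genes at 1 or more became 985 at 1.5-fold, 60 at 3-fold, 57 with median scaling, 2103 without the filter and 21 with 10-spot probes. Its 275 at -1 or less became 655, 87, 1072, 1654 and 21 in that order, 468 with detection by any spot, and 179 and 175 without noisy spots. The correlation of 0.175 was 0.0778 without the filter and 0.123 with normexp. Fewer genes are tested with 10-spot probes (649) and more without the filter (14959). For the rest the cause was not tested.

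Of the 23 genes higher in both, 14 were lost in no setting of the processing other than the 10-spot one. Normexp lost Acer2, Adm, Ccng1, Lgals3, Pfkl, Sdc1 and Tnfrsf9, and leaving out noisy spots lost Isg15, Plod1 and Sdc1. Dcaf5 turned to 0.13 in FAO cells without noisy spots under either rule, and Sult1c2 to -3.34 with outlier spots kept. Of 1254 values of 104 single gene differences (those past 2-fold in both comparisons and the fixed iron genes), 1095 stayed within the spot error and 19 changed sign: 3 of differences past 2-fold and 16 of smaller ones, such as Fth1, Ftl1, Aco1 and Tfr2 in liver under the median scaling and Tf in liver without noisy spots. Dim genes, such as Rhd in FAO cells, have spot errors near 1 and small differences in them cannot be read.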

Other observations

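Circadian clock genes were divided between the comparisons. Nfil3, a transcriptional repressor, was at 0.64 with deferoxamine against -0.90 in untreated FAO cells (1.54 ± 0.16), and at 0.75 in iron-free against 0.35 in iron-sufficient liver (0.39 ± 0.27). Dbp, an activator with a strong daily rhythm, was at 2.28 with deferoxamine against 2.60 in untreated cells, and at 1.22 in iron-free against 3.84 in iron-sufficient liver, a difference of -0.32 in FAO cells and -2.61 in liver, where it has no clean value. In kidney Dbp differed by -1.11. Of 8 member clock genes, 2 were higher and 1 lower in FAO cells, against 2.35% and 3.96% of all genes. Npas2 was the gene lower in FAO cells, at -1.14 but 0.35 from clean spots. In liver 1 was higher and 3 lower, against 2.39% and 2.23% of all genes, or 3 and 1 under the median scaling. The hour of sampling is not given in the sources used here, and its part was not tested.

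Genes of the integrated stress response, which slows translation and raises amino acid supply genes, had medians of -0.06 in FAO cells and -0.03 in liver. Of 22 members, 3 were higher in FAO cells (Ppp1r15a 1.84, Trib3 1.41 and Cebpb 1.56, the last 0.90 from clean spots), against 0.43, -0.14 and -0.49 in liver. Another 3 were higher in liver (Phgdh 2.63, Psat1 1.97 and Mthfd2 1.92), against -0.48, -0.02 and 0.20 in FAO cells. No member of this list was higher in both. The list does not hold Atf3, counted here among the immediate early genes, which was higher in both (5.88 and 1.85). Under the median scaling 7 members of the list were higher in liver. The shares of all genes called higher were 2.35% in FAO cells and 2.39% in liver.

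Bile acid and hepatocyte regulators lay mostly below 0. Hnf4a, the master factor of hepatocytes, was at -2.56 with deferoxamine against -1.75 in untreated cells (-0.81 ± 0.46), and at -2.30 in iron-free against -1.16 in iron-sufficient liver (-1.14 ± 0.58, clean -0.96). Of 15 hepatocyte transcription factors, 4 were above 0 in FAO cells (median -0.22), against 53.3% of all genes. In liver 1 was above 0 (median -0.49, turning to 0.16 under the median scaling), against 38.5% of all genes. Baat, which conjugates bile acids, was lower in FAO cells at -1.82 and gave -0.08 in liver.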
